A study of Komagataella phaffii GS115 with 12 samples.

Results

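G12-CBS, a strain of the methylotrophic yeast Komagataella phaffii GS115 (also called Pichia pastoris) built to make S-adenosyl-L-methionine, was compared with itself at 72 h and at 24 h of methanol induction. The strain carries DS56, a recombinant gene for methionine adenosyltransferase, which joins methionine and ATP into S-adenosyl-L-methionine. In the same strain the weak promoter G12 lowers CYS4, the gene for cystathionine beta-synthase. The 72 h cultures had been given L-methionine (L-Met) at 24 h of induction and the 24 h cultures were taken unfed, so time on methanol and feeding changed together and cannot be told apart. The comparison used 6 of the 12 arrays of the series, 3 per group, and all 2390 rows of the deposited expression table. The 3 samples of a group came from separate shake-flask cultures in BSM, a mineral salts medium with glycerol, and were induced with methanol. The phenotype labels class G12-CBS at 72 h as high-producing and at 24 h as low-producing, while the titles call it a high producer at both times. The other 6 arrays, used here for the estimate of the spread and for levels side by side, were GS115/3.5K with the empty vector pPIC3.5K and GS115/DS56 with the DS56 gene, each with 3 cultures fed L-Met at 24 h and taken at 72 h.

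Rows of the table are identified by systematic names of Saccharomyces cerevisiae genes: all 2390 occur in a table of S. cerevisiae genes and 0 occur among the 5040 genes of a K. phaffii RefSeq table. Symbols and roles below are therefore those of the S. cerevisiae gene of that name, given as background. A row is not shown to read one particular K. phaffii transcript. No detection flags were used, so no row can be called above background, and rows with a mean of 8 or more on the log2 scale over the 12 arrays, called bright here, are read before the 2230 dimmer ones. Each value is a level relative to the rest of the RNA on its array, from total RNA of a whole culture, so fewer cells with a transcript and less of it per cell cannot be told apart.

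In methanol-grown K. phaffii, methanol is oxidised in peroxisomes to formaldehyde and hydrogen peroxide. The formaldehyde is either joined to a pentose phosphate, which feeds sugar synthesis, or oxidised to carbon dioxide to give NADH. Catalase and peroxiredoxins remove the peroxide. S-adenosyl-L-methionine is the methyl donor of the cell: once the methyl group is given away, S-adenosylhomocysteine is left, which is split into adenosine and homocysteine. Homocysteine is either methylated back to methionine or drawn by cystathionine beta-synthase towards cysteine. No row analysed here bears the name of CYS4 itself, so its lowering in this strain could not be checked. Alcohol oxidase, which starts methanol oxidation in K. phaffii and which S. cerevisiae lacks, was not analysed here either.

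Values ran from 5.62 to 15.76 on the log2 scale, with a median of 6.64. Array medians were 6.65 to 6.66 at 24 h and 6.59 to 6.62 at 72 h. The 24 h cultures lay closer together (median SD of a row 0.095, n = 3) than the 72 h cultures (0.177, n = 3). Pearson correlations across rows, which are not independent replicates, were 0.987 to 0.991 among 24 h arrays, 0.956 to 0.961 among 72 h arrays and 0.906 to 0.915 between the times. Between the 24 h arrays of G12-CBS and the fed 72 h arrays of DS56 they were higher, 0.977 to 0.983. Slides and scan dates were not used here, so an array batch that followed the groups cannot be told apart from them.

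A row is called where limma's test gave a Benjamini-Hochberg adjusted p under 0.05. Of the 2390 rows, 546 (22.8%) were called, 197 (8.24%) higher and 349 (14.6%) lower at 72 h, and 68 (2.85%) were called and differed at least 2-fold, 31 upward and 37 downward. Among the 160 bright rows 93 (58.1%) were called, 45 (28.1%) higher and 48 (30.0%) lower, against 453 (20.3%) of the dimmer rows. At least 2-fold called changes made up 38 (23.8%) of the bright rows, 14 upward and 24 downward. The 3 arrays of one time did not overlap the 3 of the other in 982 rows (41.1%) and in 108 bright rows (67.5%). The split of the calls depended on the scale of the arrays: 36.1% of calls were higher at 72 h as deposited, 46.5% once the array medians were set equal (centring) and 48.2% with quantile normalization, which shifted the median difference of all rows by 0.047 and 0.052. Among bright rows the same scalings gave 47 higher and 46 lower, and 46 higher and 49 lower. Because the limit uses all 12 arrays, 4 of the 45 bright rises (YNL190W, DGK1, RPL27A and TRR1) passed it only through the 72 h cultures, with a mean under 8 over the other 9 arrays, and 3 of the 48 bright falls (TUB2, SAM1 and VRP1) only through the 24 h cultures. Just outside the limit for bright rows lay YKL148C (SDH1), YIR015W and YNL044W at means of 7.95, 7.96 and 7.96, and just inside lay YGL194C, YMR142C (RPL13B) and YFL037W (TUB2) at 8.02, 8.02 and 8.03.

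**Figure D1:**
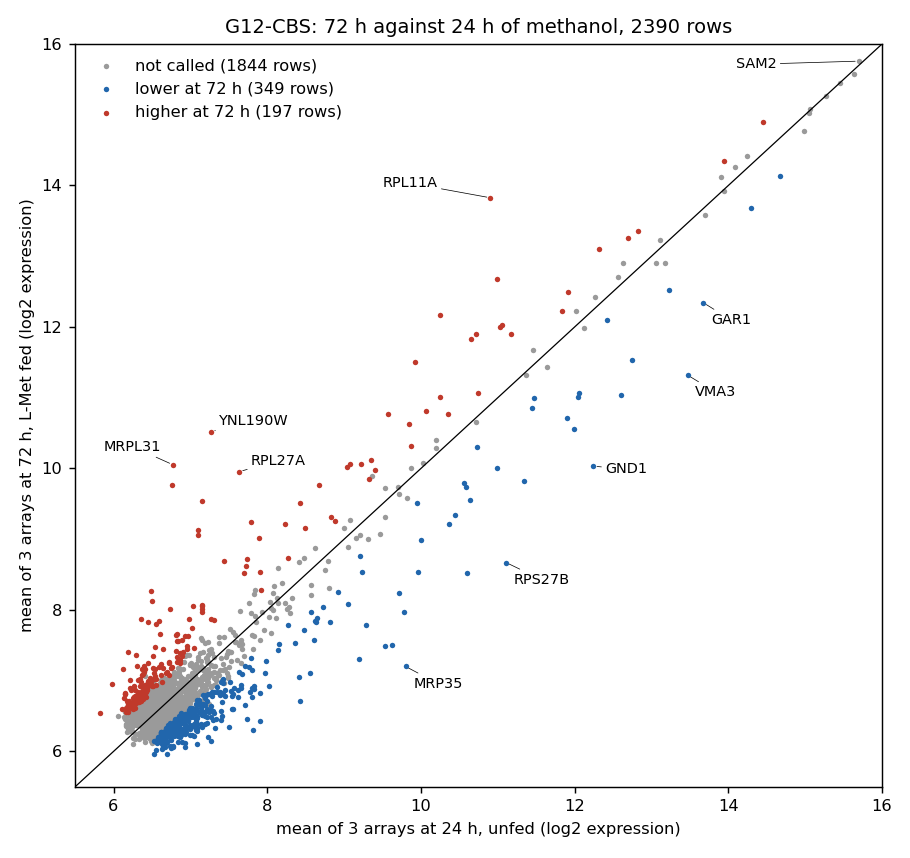
Mean log2 expression of 3 G12-CBS arrays at 72 h (vertical axis) against 3 at 24 h (horizontal axis), 1 point per row, with called rows coloured by direction and the diagonal marking equal levels. The 197 higher and 349 lower calls crowd among the dim rows, while the bright rows spread to both sides of the diagonal and SAM2 sits on it at the top of the scale.

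The bright rows that rose most were a hydrophilin-like protein row and rows of cytosolic ribosomal proteins. YNL190W, which in S. cerevisiae encodes a hydrophilin-like cell wall protein, read 7.09, 7.45 and 7.28 at 24 h and 10.63, 10.45 and 10.48 at 72 h. All 3 fed cultures lay far above the unfed ones, a log2 difference of 3.25 ± 0.14 (SE) or 9.50-fold (adjusted p = 4.81e-13). Its 12-array mean of 8.07 passed the limit for bright rows only through the 72 h arrays, the other 9 averaging 7.26. YPR102C (RPL11A), for a large-subunit protein near the central protuberance of the ribosome, read 10.85, 11.01 and 10.85 at 24 h and 13.83 on all 3 arrays at 72 h. It rose 7.58-fold (log2 2.92 ± 0.12, adjusted p = 3.38e-13). Its identical values at 72 h have an SD of 0 that does not measure the spread, because arrays share the same value levels at the bright end: 12 bright rows had an SD of 0 at 72 h and 7 at 24 h. YOR311C (DGK1), for diacylglycerol kinase of the endoplasmic reticulum and nuclear envelope, read 7.29, 7.12 and 7.05 at 24 h and 9.77, 9.47 and 9.40 at 72 h, a 5.25-fold rise (adjusted p = 2.06e-11) in a row that also counts as bright only through the 72 h arrays (mean 8.07, and 7.58 over the other 9). YHR010W (RPL27A), of the large subunit, stood at 7.64, 7.55 and 7.72 at 24 h and at 10.60, 9.05 and 10.21 at 72 h. It rose 4.99-fold (log2 2.32 ± 0.25, adjusted p = 7.68e-07), with the fed cultures far apart from each other (SD 0.81) yet all above the unfed ones. This row too was bright only through the 72 h arrays (mean 8.14, and 7.54 over the other 9).

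Of the remaining 8 largest bright rises, 4 were rows of ribosomal proteins. YPR132W (RPS23B) and YGR118W (RPS23A), duplicates for a protein of the small subunit's decoding centre, rose 2.27-fold and 2.26-fold. RPS23B read 10.71, 10.71 and 10.74 at 24 h and 11.92, 11.90 and 11.90 at 72 h, and RPS23A read 10.60, 10.74 and 10.63 and then 11.90, 11.80 and 11.80. In each row the 2 times were separated by more than 1 log2 unit while the cultures of 1 time differed by less than 0.15. YGL147C (RPL9A) rose from 9.57 ± 0.09 to 10.77 ± 0.23 (SD, n = 3 each, adjusted p = 8.73e-07) and YGR085C (RPL11B) from 7.79 ± 0.12 to 9.24 ± 0.23 (adjusted p = 1.46e-06). YLR037C (PAU23), of the seripauperin family of cell wall mannoproteins, rose 3.02-fold, from 9.92 ± 0.05 to 11.51 ± 0.07 (adjusted p = 1.68e-09). The short or uncharacterised frames YOR072W-B, YPR108W-A and YJR120W rose 3.78-fold, 3.21-fold and 2.19-fold.

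The bright falls were led by rows of a mitochondrial ribosomal protein, several small ribosomal proteins, an NADPH-making dehydrogenase and a proton pump subunit. YNL122C (MRP35), of the large mitochondrial ribosomal subunit, read 9.64, 9.94 and 9.82 at 24 h and 7.59, 6.82 and 7.19 at 72 h. It was 6.05-fold lower at 72 h (log2 -2.60 ± 0.19, adjusted p = 2.33e-09), with no overlap between the times. YHR183W (GND1), for phosphogluconate dehydrogenase, the second NADPH-making step of the pentose phosphate pathway, read 12.23, 12.23 and 12.27 at 24 h and 10.11, 9.87 and 10.11 at 72 h. That is a 4.63-fold fall (log2 -2.21 ± 0.12, adjusted p = 1.88e-11). YEL027W (VMA3), for the proteolipid ring subunit of the vacuolar proton pump, read 13.58, 13.41 and 13.41 at 24 h and 11.34, 11.28 and 11.34 at 72 h, 4.44-fold lower (adjusted p = 1.88e-11). The unfed cultures lay above the fed ones by more than 2 log2 units in both rows.

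Of the others among the 12 largest bright falls, 4 were rows of ribosomal proteins. YHR021C (RPS27B) read 11.08, 11.08 and 11.16 at 24 h and 8.79, 8.17 and 9.05 at 72 h, a 5.42-fold fall (adjusted p = 1.14e-09). YLR264W (RPS28B) read 10.68, 10.34 and 10.76 and then 8.49, 8.09 and 8.98, 4.22-fold lower. YJL189W (RPL39), for a very small protein lining the exit tunnel, was at 9.53 on all 3 arrays at 24 h and at 7.73, 7.15 and 7.60 at 72 h, 4.11-fold lower. In all 3 rows the fed cultures were lower than the unfed ones. They were also more spread out, as 72 h arrays were over all rows (median SD 0.177, against 0.095 at 24 h). The equal values of RPL39 at 24 h do not measure its spread. YKR057W (RPS21A) fell 3.70-fold (adjusted p = 7.51e-07). Outside the ribosome, YCR020W-B (HTL1), of the RSC chromatin remodelling complex, fell 4.36-fold, from 9.63 ± 0.10 to 7.50 ± 0.46, and YNL007C (SIS1), an essential J-protein partner of cytosolic Hsp70, fell 2.86-fold, from 11.34 ± 0.21 to 9.82 ± 0.11. The frames YDR524C-B, YLR162W and YJL136W-A fell 3.52-fold, 2.96-fold and 2.82-fold.

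**Figure D2:**
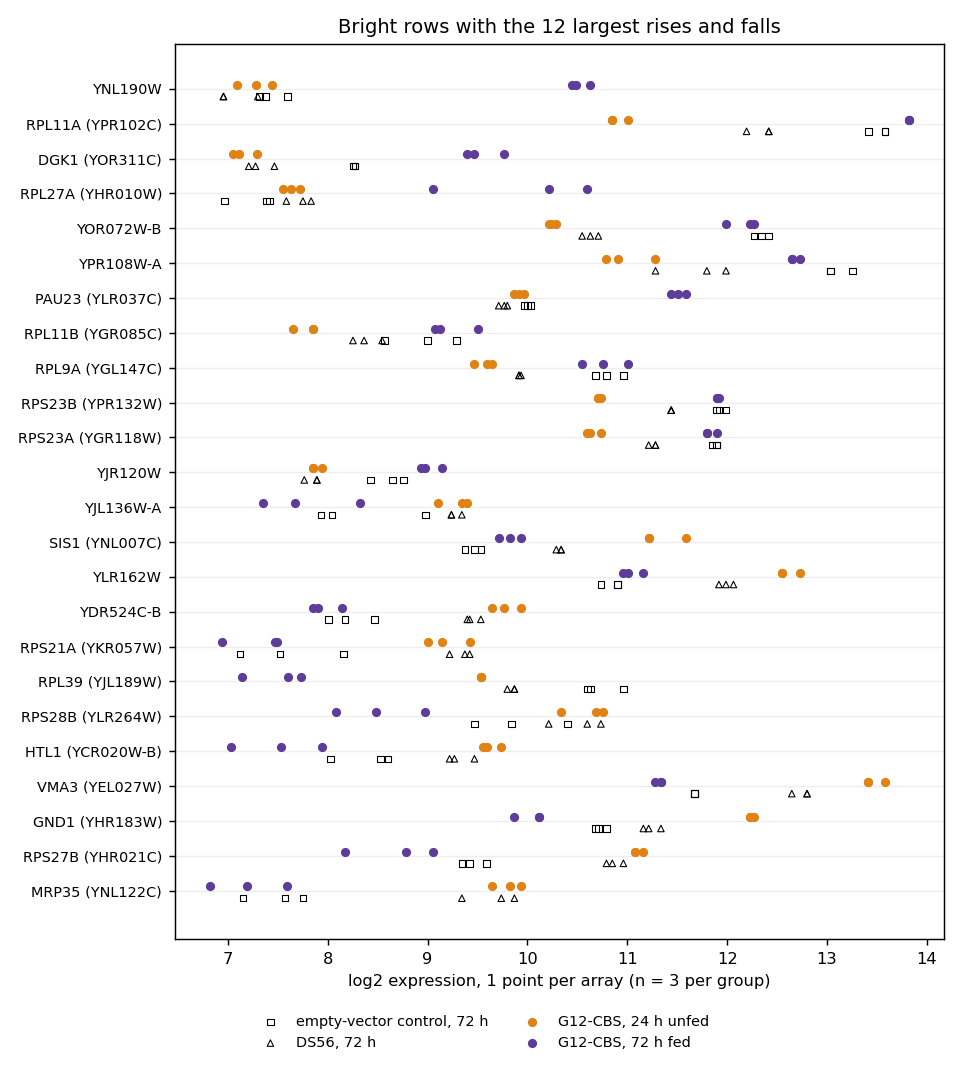
Log2 expression of the 12 bright rows with the largest rises (top) and the 12 with the largest falls (bottom), 1 point per array, n = 3 per group, with the empty-vector control and DS56 strains at 72 h drawn just below each G12-CBS row. G12-CBS at 24 h and at 72 h do not overlap in any of the 24 rows, and the 72 h points of RPL27A spread from 9.05 to 10.60.

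Rows of cytosolic ribosomal proteins moved in both directions. In the large subunit 30 of 63 rows were called (47.6%, against 22.8% of all rows), 14 higher and 16 lower (15 and 14 after either scaling), with a median log2 difference of -0.07. In the small subunit 23 of 45 were called (51.1%), 12 higher and 11 lower, with a median of -0.08. Of 28 bright large-subunit rows 10 were higher, 3 lower and 15 not called (median 0.19), and of 24 bright small-subunit rows 12 were higher, 6 lower and 6 not called (median 0.29), against 58.1% called, 28.1% higher and 30.0% lower, among all bright rows. Of the 10 higher bright large-subunit rows, RPL27A was bright only through the 72 h arrays. The bright lower rows of the large subunit were RPL39, YGL031C (RPL24A, -0.75 ± 0.15 SE) and YBL087C (RPL23A, -0.61 ± 0.11). Those of the small subunit were RPS27B, RPS28B, RPS21A, YOR369C (RPS12, -1.48 ± 0.18), YBR048W (RPS11B, -0.84) and YJL190C (RPS22A, -0.70). RPS12 read 9.77, 9.67 and 9.71 at 24 h and 8.19, 7.88 and 8.65 at 72 h. Its fed cultures lay lower and, as over all rows, further apart. Among dimmer large-subunit rows, YGL135W (RPL1B) fell most: it read 7.73, 7.72 and 7.99 at 24 h and 6.02, 6.47 and 6.43 at 72 h (log2 -1.50 ± 0.16, adjusted p = 6.03e-07). All 5 called dimmer small-subunit rows were lower, with YGL123W (RPS2) at -1.03 the furthest (adjusted p = 3.55e-06). Near the top of the scale, YLR167W (RPS31), a ubiquitin fusion, rose from 14.46 to 14.89 (adjusted p = 0.0144), while YLR075W (RPL10) averaged 15.27 at both times.

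Many ribosomal proteins of S. cerevisiae come from duplicated genes that differ little, and 36 such pairs had both rows in the table. In 10 pairs both rows were called in the same direction, 5 upward and 5 downward, in 12 pairs only 1 row was called, in 12 neither was, and in 2 the rows were called in opposite directions. Of the 10 pairs with both rows bright, RPL9, RPL11, RPL20 and RPS23 rose in both rows, and in the other 6 only 1 row was called. RPL20A and RPL20B (YMR242C, YOR312C) rose by 0.85 and 0.99 on the log2 scale. YMR143W (RPS16A) rose by 0.98 while YDL083C (RPS16B) fell by 0.51, and YLR185W (RPL37A) rose by 0.32 while YDR500C (RPL37B) fell by 0.76. RPS27 showed the widest gap, with RPS27B at -2.44 and YKL156W (RPS27A) at -0.08 (adjusted p = 0.79). The rows of a pair may read the same transcript, so values of duplicates are uncertain as measures of separate genes.

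**Figure D3:**
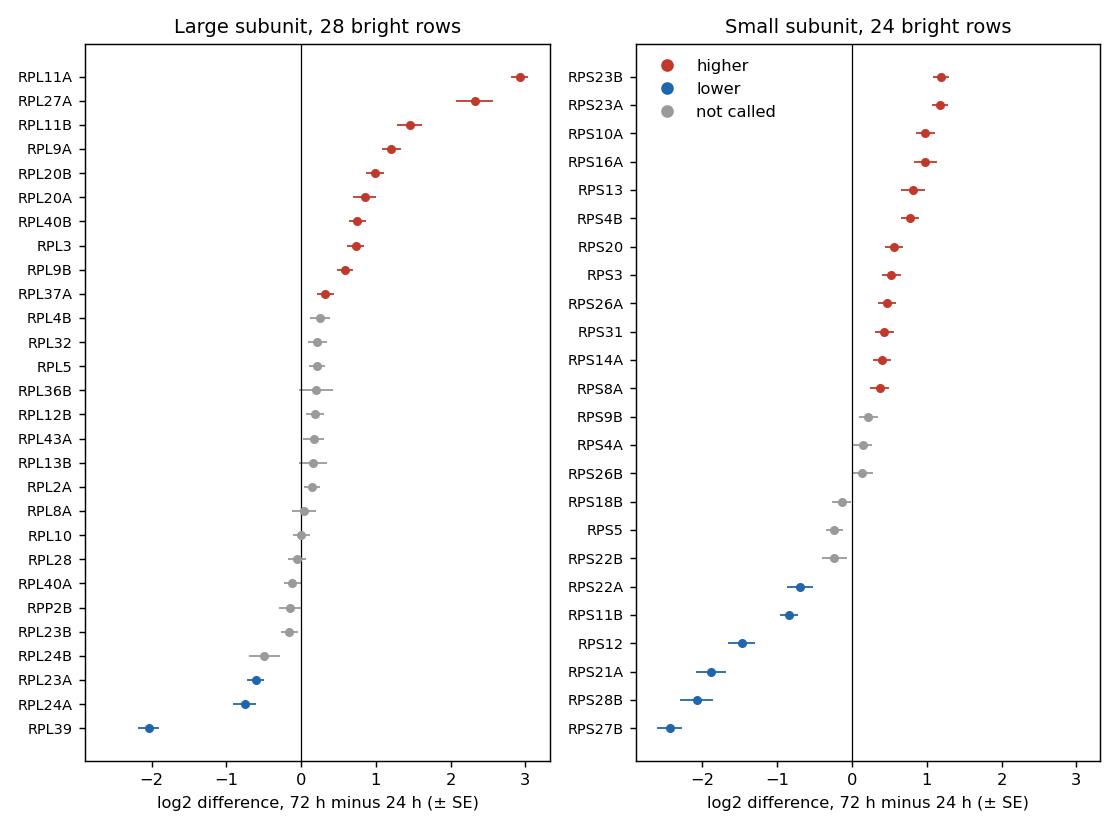
Log2 difference at 72 h minus 24 h for the 28 bright large-subunit rows (left) and the 24 bright small-subunit rows (right), with bars of ±1 SE from limma and colours for the call. Large-subunit rows run from RPL39 at -2.04 to RPL11A at 2.92 and small-subunit rows from RPS27B at -2.44 to RPS23B at 1.18.

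Rows for ribosome assembly and translation were called in both directions. Of 7 nucleolar ribonucleoprotein rows 3 were called (42.9%, against 22.8% of all rows). Its 2 bright rows were both called, where 58.1% of all bright rows were. YHR089C (GAR1), of the H/ACA particles that guide pseudouridine formation in ribosomal RNA, read 13.41, 13.69 and 13.92 at 24 h and 12.34 on all 3 arrays at 72 h, 2.52-fold lower (log2 -1.33 ± 0.14, adjusted p = 7.14e-07). YDL014W (NOP1), the methyltransferase of the C/D particles, which uses S-adenosyl-L-methionine, read 12.80, 12.80 and 12.65 and then 11.58, 11.44 and 11.58, 2.32-fold lower (adjusted p = 1.18e-07). In both rows every unfed culture lay more than 1 log2 unit above every fed one. YLR175W (CBF5), the pseudouridine synthase of the same particles as GAR1, was dim and rose by 0.59 ± 0.13 (adjusted p = 0.00243). Of 26 translation factor rows 4 rose and 4 fell (30.8% called, against 22.8% of all rows, median -0.02, or 0.02 after centring). YLR150W (STM1), a ribosome-bound protein, fell from 10.001 ± 0.11 to 8.99 ± 0.15, and YDR385W (EFT2), elongation factor eEF2, from 11.45 ± 0.10 to 10.86 ± 0.15. YJR047C (ANB1), an isoform of eIF5A used under low oxygen in S. cerevisiae, fell by 0.95 on the log2 scale, and YAL003W (EFB1), the exchange factor of eEF1A, rose by 0.92 ± 0.15 (adjusted p = 0.00012). YBR143C (SUP45), the release factor, rose by 0.66. The eEF1A rows YPR080W (TEF1) and YBR118W (TEF2) differed by 0.02 and -0.02, near the top of the scale. YLR249W (YEF3), elongation factor eEF3, was called higher (0.45, adjusted p = 0.0244) but passed in neither the fit to the 6 G12-CBS arrays (0.0528) nor without 72 h replicate 2 or 3 or any 1 of the 24 h replicates (0.0517 to 0.12). The number of translation factors called higher dropped to 2 in that fit, and without 72 h replicate 2 or 3 or 24 h replicate 2 or 3.

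Core histone rows were called in 1 direction as deposited and after either scaling, but in both with a variance trend. Of 8 histone rows, 7 of them bright, 3 were called, all higher (37.5%). All 3 were among the 7 bright rows, and of all 160 bright rows 28.1% were higher and 58.1% were called. YNL031C (HHT2, histone H3) read 7.98, 7.81 and 7.93 at 24 h and 8.50, 8.67 and 8.43 at 72 h (log2 0.63 ± 0.12, adjusted p = 0.000605). YDR225W (HTA1, histone H2A) read 9.37, 9.32 and 9.51 at 24 h and averaged 9.98 ± 0.06 (SD) at 72 h (0.58 ± 0.11, adjusted p = 0.000973). The fed cultures lay above the unfed ones in both rows without overlap. YBL003C (HTA2) rose by 0.42 (adjusted p = 0.013) and missed the threshold without 24 h replicate 3 (0.0929). YDR224C (HTB1, H2B) differed by 0.44 without passing (adjusted p = 0.0669) and passed after centring (0.0439). The histone H4 rows YBR009C (HHF1) and YNL030W (HHF2) differed by 0.13 and -0.02 (adjusted p = 0.46 and 0.921), and YBR010W (HHT1) by -0.28 (0.104), which passed with a variance trend (0.0291).

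Of 23 rows for sulfur amino acids and the methyl cycle, 6 were called (26.1%, against 22.8% of all rows), 1 higher and 5 lower, with a median of -0.07. The 2 methionine adenosyltransferase rows differed in position. YDR502C (SAM2) read 15.76, 15.58 and 15.76 at 24 h and 15.76 on all 3 arrays at 72 h, the highest level of the table, where a further rise could not show (adjusted p = 0.782). It averaged 15.76 in DS56 and 10.47 in the empty-vector control. Whether this row reads the DS56 gene, the yeast's own gene or both is not known here. YLR180W (SAM1) read 8.72, 8.74 and 8.70 at 24 h and 8.00, 8.02 and 8.12 at 72 h, a log2 difference of -0.68 ± 0.16 (adjusted p = 0.00423), and averaged 8.75 in DS56 and 7.06 in the control. The fed cultures thus lay between the unfed ones and the control in this row.

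Within the methyl cycle, YER043C (SAH1), which splits S-adenosylhomocysteine, read 8.00, 8.01 and 7.95 at 24 h and 7.31, 7.27 and 7.26 at 72 h (log2 -0.70 ± 0.13, adjusted p = 7e-04). Its 2 groups were each tight and did not overlap. YLR058C (SHM2), cytosolic serine hydroxymethyltransferase, which supplies one-carbon units, read 7.02, 7.22 and 7.02 and then 6.39, 6.18 and 6.37 (-0.77 ± 0.17, adjusted p = 0.00202). YER091C (MET6), methionine synthase, was dim and differed by -0.07 ± 0.13 (adjusted p = 0.732). On the transsulfuration branch, YGL184C (STR3), for cystathionine beta-lyase, which turns cystathionine back into homocysteine, was the single riser: it read 6.31, 6.14 and 6.41 at 24 h and 7.04, 7.34 and 7.69 at 72 h (1.07 ± 0.14, 2.10-fold, adjusted p = 1.37e-05). YAL012W (CYS3), for cystathionine gamma-lyase, which follows CYS4, was called lower by -0.42 (adjusted p = 0.025), but passed neither after quantile normalization (0.0697) nor without 24 h replicate 3 or 72 h replicate 1 or 3 (0.0574 to 0.171). YDR253C (MET32), a transcription factor of the sulfur genes, was lower by -0.43 (adjusted p = 0.0333). Lower calls in this list numbered 3 without 72 h replicate 3, without 24 h replicate 3 or after quantile normalization. Higher calls numbered 3 without 72 h replicate 3 and 2 without 72 h replicate 2.

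Of 29 rows for glycolysis, gluconeogenesis and the pentose phosphate pathway 2 rose and 7 fell (31.0% called, median -0.12). Over all rows 22.8% were called, and falls outnumbered rises there too, 349 (14.6%) to 197 (8.24%). Besides GND1, YLR153C (ACS2), acetyl-CoA synthetase, fell most: it read 8.41, 8.33 and 8.54 at 24 h and 7.09, 6.61 and 6.46 at 72 h, 3.27-fold lower (adjusted p = 8.69e-08). YLR354C (TAL1), transaldolase of the pentose phosphate pathway, fell by 0.64 ± 0.14 on the log2 scale (adjusted p = 0.00178). The rows of 2 isoforms of glyceraldehyde-phosphate dehydrogenase, which may share probes, moved apart: YGR192C (TDH3) was at 14.68 on all 3 arrays at 24 h and at 14.16, 14.09 and 14.16 at 72 h (-0.54 ± 0.11, adjusted p = 0.00121), while YJR009C (TDH2) read 11.80, 11.90 and 11.80 and then 12.19, 12.27 and 12.23 (0.40 ± 0.11, adjusted p = 0.0108). TDH2 missed the threshold without 24 h replicate 1 (0.0509), which left 1 higher call in the list. YGR254W (ENO1), enolase, rose by 0.55. The other bright rows, YCR012W (PGK1), YBR196C (PGI1), YKL152C (GPM1) and YKL060C (FBA1), differed by 0.22, -0.07, 0.18 and -0.39 and were not called. FBA1, at an adjusted p of 0.0529, passed in 8 of the alternatives, with quantile normalization (0.0471) and array weights (0.03) among them. Of the formaldehyde oxidation list, YDL168W (SFA1), glutathione-dependent formaldehyde dehydrogenase, and YJL068C, S-formylglutathione hydrolase, were dim and differed by -0.23 and 0.15 (adjusted p = 0.171 and 0.444).

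As deposited, all 12 rows of the citrate and glyoxylate cycles had a lower mean at 72 h, and 6 of them were called lower, 5 after either scaling (14.6% of all rows were called lower), with a median of -0.35 against -0.05 for all rows. YLR304C (ACO1), aconitase and the single bright row of the list, read 11.99, 11.80 and 11.92 at 24 h and 10.71, 10.71 and 10.74 at 72 h, 2.27-fold lower (adjusted p = 5.51e-07). YDL078C (MDH3), peroxisomal malate dehydrogenase, read 7.22, 7.25 and 7.33 and then 6.08, 6.04 and 6.33, 2.17-fold lower (adjusted p = 1.41e-06). Neither row had overlapping groups. YNL037C (IDH1), isocitrate dehydrogenase, fell by 0.64 and YKL148C (SDH1), of succinate dehydrogenase, by 0.49 on the log2 scale, and YDL066W (IDP1) and YKL085W (MDH1) fell by 0.39 and 0.38. Without 24 h replicate 3 the calls dropped to 3, and SDH1 was among those lost (adjusted p = 0.0613).

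In the respiratory chain and ATP synthase list 9 of 20 rows were called, 3 higher and 6 lower (45.0%, median -0.17), against 22.8% of all rows called, 8.24% higher and 14.6% lower. YDR322C-A (TIM11), for subunit e, which holds ATP synthase dimers together, rose most: it read 7.18, 7.12 and 6.99 at 24 h and 9.22, 9.24 and 8.72 at 72 h, 3.89-fold higher (adjusted p = 1.69e-09). YJR121W (ATP2), for the catalytic beta subunit, moved the other way, from 13.26, 13.19 and 13.26 to 12.55, 12.55 and 12.47 (log2 -0.71 ± 0.12, adjusted p = 0.000276). The fed cultures lay clear of the unfed ones in both rows, above in TIM11 and below in ATP2. YBL099W (ATP1), for the alpha subunit, was called lower (-0.46, adjusted p = 0.0269) although its arrays met at 11.28, and was not called in the fit to the 6 arrays (0.0507) nor without 72 h replicate 2 or 3 or 24 h replicate 1 or 2 (0.062 to 0.152). YIL111W (COX5B) fell by 0.66 ± 0.13 and YNL052W (COX5A) rose by 0.68 ± 0.14. In S. cerevisiae these are alternative forms of 1 cytochrome c oxidase subunit, used at low and at high oxygen. YBL030C (PET9), the ADP/ATP carrier of the inner membrane, rose from 10.07 ± 0.17 to 10.82 ± 0.08 (adjusted p = 0.000355). Lower calls in this list dropped to 3 without 24 h replicate 1.

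Of 14 rows for defence against oxidants 8 were called (57.1%, against 22.8% of all rows), 3 higher and 5 lower. Of its 5 bright rows 4 were called, where 58.1% of all bright rows were. YML028W (TSA1) and YLR109W (AHP1), thiol peroxidases of the cytosol, and YDR353W (TRR1), the cytosolic thioredoxin reductase that keeps the thioredoxin system reduced, all rose. TSA1 read 8.35, 8.54 and 8.39 at 24 h and 9.34, 9.74 and 9.47 at 72 h (2.13-fold, adjusted p = 1.42e-05). TRR1 read 7.63, 7.76 and 7.82 and then 8.74, 8.74 and 8.67 (1.98-fold, adjusted p = 1.53e-06). It is among the 4 called bright rows only through the 72 h arrays, with a mean of 7.86 over the other 9. AHP1 read 11.34, 10.85 and 10.96 and then 12.16, 11.99 and 11.92 (1.96-fold, adjusted p = 0.000175). In each of the 3 rows all fed cultures lay above all unfed ones. YGR088W (CTT1), the cytosolic catalase of S. cerevisiae, moved the other way, from 11.90, 11.85 and 12.23 to 10.55, 10.48 and 10.63, 2.71-fold lower (adjusted p = 3.11e-07). The remaining lower calls were YHR106W (TRR2), YBL064C (PRX1) and YCR083W (TRX3), the mitochondrial thioredoxin reductase, peroxiredoxin and thioredoxin, at log2 differences of -0.86, -0.86 and -0.51, and YDR513W (GRX2), a glutaredoxin, at -0.45. YJR104C (SOD1), cytosolic superoxide dismutase, was bright and differed by -0.31 (adjusted p = 0.0797).

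**Figure D4:**
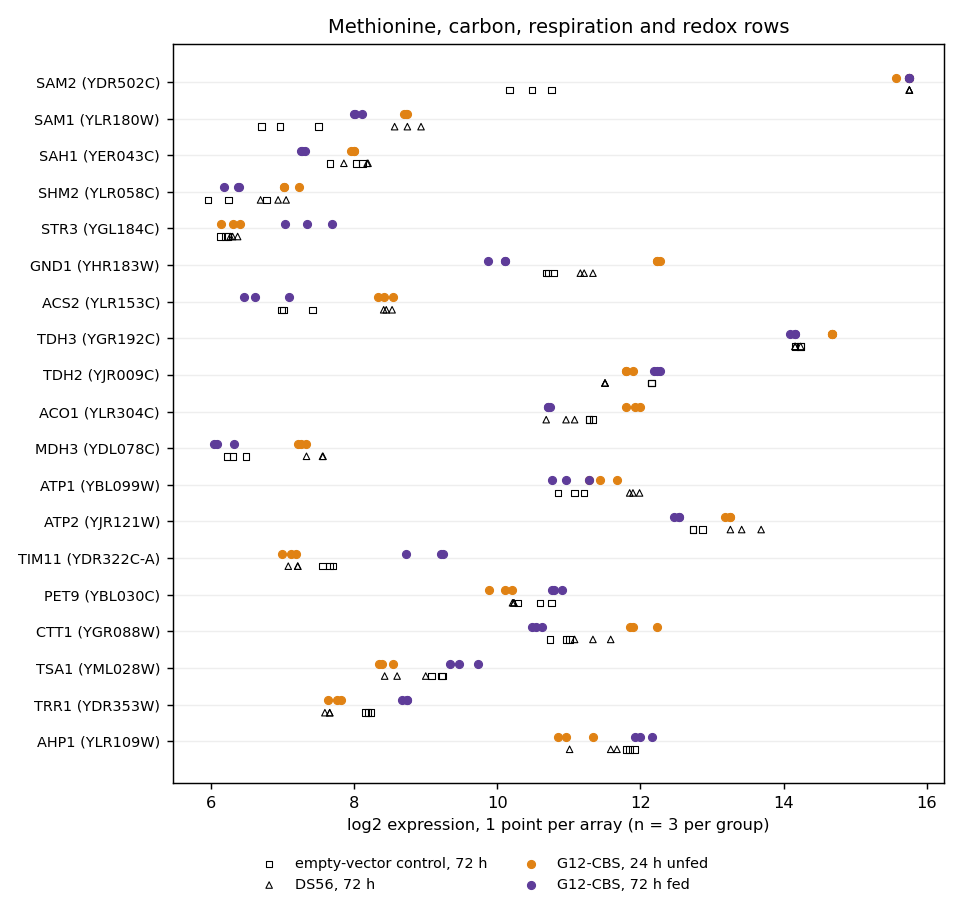
Log2 expression of 19 rows of methionine, carbon, respiratory and redox metabolism, 1 point per array, n = 3 per group, with the empty-vector control and DS56 strains at 72 h drawn just below each G12-CBS row. SAM2 is at or near the top of the scale in every group except the control, and TSA1, TRR1 and AHP1 lie higher at 72 h than at 24 h while CTT1 lies lower.

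Of 32 chaperone and folding rows 5 were called (15.6%, against 22.8% of all rows), 2 higher and 3 lower. Besides SIS1, YJR045C (SSC1), the Hsp70 of the mitochondrial matrix, fell by 0.80 ± 0.12 on the log2 scale (adjusted p = 6.39e-05). The 2 other bright rows, YJL034W (KAR2), the Hsp70 of the endoplasmic reticulum, and YPL240C (HSP82), an Hsp90, differed by -0.13 and 0.08 (adjusted p = 0.578 and 0.701). YDR519W (FPR2) and YCL043C (PDI1), a prolyl isomerase and a disulfide isomerase of the secretory pathway, rose by 0.61 and 0.41, and without 72 h replicate 1 or 2 or 24 h replicate 1 or 3 only 1 higher call was left in the list. YJL111W (CCT7), of the cytosolic chaperonin, was called lower (-0.47, adjusted p = 0.0443) and missed the threshold in 12 of 21 alternatives.

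Of 10 rows for translocation, glycosylation and vesicle coats 4 were called lower and 0 higher, against 14.6% of all rows lower and 22.8% called. YML012W (ERV25), a p24 cargo protein, read 8.79, 8.57 and 8.47 at 24 h and 7.64, 7.55 and 7.53 at 72 h, 2.05-fold lower (adjusted p = 1.6e-05). YIR022W (SEC11), of signal peptidase, fell by 0.55, YPR181C (SEC23), of the COPII coat, by 0.41 and YGL200C (EMP24), the p24 partner of ERV25, by 0.38. The last 2 of these were lost without 24 h replicate 2 or 3, EMP24 also after centring (adjusted p = 0.0574), and 1 higher call appeared in the list without 72 h or 24 h replicate 3 and after quantile normalization. The bright rows YBR162W-A (YSY6) and YBR171W (SEC66) differed by -0.04 and 0.25 and were not called. Of 7 proton pump rows VMA3 and YGL008C (PMA1), the plasma membrane proton pump, were called lower (28.6%, against 14.6% of all rows). Both are bright, and 30.0% of all bright rows were lower. PMA1 read 10.63, 10.76 and 10.79 and then 10.45, 10.21 and 10.23 (-0.43 ± 0.12, adjusted p = 0.0139) and missed the threshold without 24 h replicate 2 or 3 (0.0521 and 0.0642), while 2 rows of this list were called higher after either scaling and without control replicate 1 or 2, and 1 without 72 h replicate 1 or 3. Of 12 ergosterol rows 2 were called, both lower (16.7%, near the 14.6% of all rows). YGL001C (ERG26), a sterol dehydrogenase, and YLR450W (HMG2), an HMG-CoA reductase, fell by 0.997 and 0.66. In this list 1 row was called higher without 72 h replicate 2.

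The share of rows called in 4 smaller lists stood on either side of the 22.8% of all rows (8.24% higher, 14.6% lower). It was 25% for proteasome and polyubiquitin, 7.69% for peroxisome and 22.2% for RNA polymerases. For the cytoskeleton it was 66.7%, out of only 3 rows. Of 16 proteasome and polyubiquitin rows, YOL038W (PRE6) rose by 0.83 and YPR103W (PRE2) and YJL001W (PRE3) fell by 0.62 and 0.58, all 3 subunits of the proteasome core. YLL039C (UBI4), polyubiquitin, fell from 8.62 ± 0.11 to 7.85 ± 0.42 (adjusted p = 0.00932, 0.0569 without 72 h replicate 2), the bright YOR157C (PUP1) differed by -0.22 (0.455), and higher calls numbered 2 without control replicate 2 or 3 and after either scaling. Of 13 peroxisome rows YDR329C (PEX3), needed to form peroxisomal membranes, was called lower (-0.43, adjusted p = 0.018). It was lost without 72 h replicate 3 or 24 h replicate 2 or 3 (0.0507 to 0.0814), and 2 rows were called without control replicate 1. Of 9 RNA polymerase rows YOR340C (RPA43), of RNA polymerase I, rose by 0.46 and YOR210W (RPB10), shared by all 3 polymerases, fell by 0.57. RPA43 was lost without 72 h replicate 3 or 24 h replicate 1 or 3, and higher calls numbered 2 after either scaling or without control replicate 1. Of 3 cytoskeleton rows YFL037W (TUB2), beta-tubulin, fell by 0.63 (adjusted p = 0.000624), YFL039C (ACT1), actin, differed by 0.27 (0.129), and YOR122C (PFY1), profilin, was called lower by -0.43 (0.0306), a call lost after either scaling and without 72 h or 24 h replicate 2 or 3.

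Among 29 mitochondrial ribosome rows 4 were called higher and 4 lower (27.6%, against 22.8% of all rows), with a median of -0.01 that turned to 0.04 after centring. MRP35 was the single bright row. YKL138C (MRPL31), of the large subunit, showed the largest rise of the dimmer rows in the whole table: it read 6.87, 6.66 and 6.79 at 24 h, near the median of all values, and 9.87, 10.11 and 10.17 at 72 h, 9.71-fold higher (log2 3.28 ± 0.13, adjusted p = 3.38e-13). YHL004W (MRP4) rose by 0.74 and YDR337W (MRPS28) fell by 0.79, both of the small subunit. Lower calls dropped to 2 without 24 h replicate 1.

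Among the other dimmer rows, YGR049W (SCM4), a mitochondrial outer membrane protein, read 6.62, 6.75 and 6.91 at 24 h and 9.89, 9.59 and 9.80 at 72 h, 8.01-fold higher (adjusted p = 5.61e-13). YDL215C (GDH2), for the NAD-dependent glutamate dehydrogenase, which releases ammonium from glutamate, read 7.01, 6.99 and 7.29 and then 9.001, 9.51 and 8.87, 4.09-fold higher (adjusted p = 2.04e-08). The fed cultures lay more than 1 log2 unit above the unfed ones in each of these rows, and the control and DS56 strains averaged 6.84 and 6.81 in SCM4 and 7.41 and 7.14 in GDH2. YBR111C (YSA1), an ADP-ribose pyrophosphatase, fell 2.79-fold, from 7.91 ± 0.15 to 6.43 ± 0.24 (adjusted p = 1.13e-06).

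**Figure D5:**
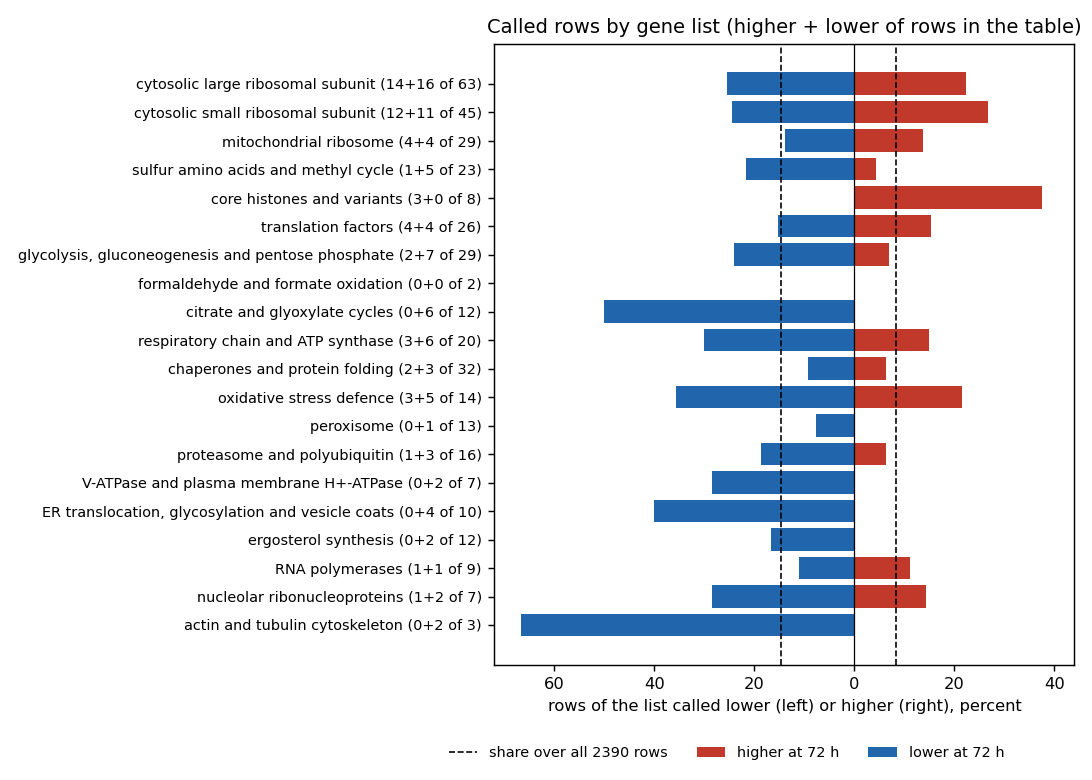
Percent of the rows of each of 20 gene lists that were called lower (left, blue) or higher (right, red) at 72 h, with the numbers called higher and lower and the rows in the table in brackets, and dashed lines at the shares over all 2390 rows (14.6% lower, 8.24% higher). The 2 cytosolic ribosomal lists extend past both lines. So do the lists of respiratory chain and ATP synthase, oxidative stress defence and nucleolar ribonucleoproteins, the last with only 1 higher row of 7. The translation factor list passes the lower line only slightly, with 4 of 26 rows lower, or 3 after centring. The citrate and glyoxylate list reaches 50.0% lower with 0 rows higher. The lines do not allow for brightness, and 58.1% of all bright rows were called.

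The other 2 strains, both fed and taken at 72 h, give the levels beside which these changes stand. In the 45 bright rows called higher, the empty-vector control was nearer to G12-CBS at 72 h in 34 and nearer to 24 h in 11, while DS56 was nearer to 24 h in 29 and nearer to 72 h in 16. In the 48 bright rows called lower, the control was nearer to 72 h in 37 and DS56 nearer to 24 h in 39. RPL11A averaged 13.53 in the control and 12.34 in DS56, VMA3 11.67 and 12.75, and MRP35 7.49 and 9.65. Several of the largest bright rises did not follow that order. YNL190W averaged 7.43 in the control and 7.07 in DS56, both close to the 7.27 of G12-CBS at 24 h. The control was also nearer to 24 h in DGK1 (8.27, beside 7.15 at 24 h and 9.55 at 72 h). The same held in RPL27A (7.26, beside 7.64 and 9.95) and PAU23 (9.999, beside 9.92 and 11.51). YNL190W, DGK1 and RPL27A counted as bright only through the 72 h arrays of G12-CBS. Low levels in the other strains are thus partly built into the choice of these rows. RPL39 also stood apart, at 10.73 in the control and 9.85 in DS56, above G12-CBS at either time. These positions are a description without a test. They were counted only in called bright rows, so they are not shown to be particular to those rows.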

How the data were processed

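Total RNA from 12 cultures was measured on 12 one-colour Cy3 NimbleGen arrays, with 8 probes for each of 5777 genes per the series' design text. The deposited table holds log2 values, and the submitters' processing notes name RMA. Neither its version nor the background correction nor the array design is given in the sources used here. Values were used as deposited. With limma 3.58.1 in R 4.3.3, 1 model of 4 groups over 12 arrays was fitted (lmFit, eBayes), the contrast was G12-CBS at 72 h minus 24 h, and p-values (two-sided) were adjusted by Benjamini-Hochberg over all 2390 rows with a threshold of 0.05. SE is limma's moderated error and SD the spread of 3 arrays, whose number limits the precision. The fit was tested on simulated data.

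Names of rows were looked up in the RefSeq gene table of K. phaffii (0 of 2390) and among S. cerevisiae genes in GenomicFeatures 1.54.1 (2390 of 2390). The S. cerevisiae symbols come from general knowledge of that genome. The comparison, the 20 gene lists and the limit of 8 for bright rows were chosen with earlier results of these data known, and 3 more lists, given last, after seeing these values. Named were bright called rows without overlap, the 12 largest rises and 12 largest falls, and 3 each among dimmer rows. Also named were up to 4 called rows per list, with bright members where there were 8 or fewer. All members were named for some counts up to 6, but not for translation factors, the respiratory chain or the mitochondrial ribosome. SAM1, SAM2, SAH1, MET6 and CYS3 were named whatever their values. Ribosomal rows outside this rule, and the called dimmer members given for contrast, were chosen after their values were seen. The alternatives were the fit to 6 arrays, a replicate block, median centring, quantile normalization, the dimmest 25% of rows left out, weights per array, a robust fit with a variance trend, limma's treat at 1.2-fold, rows at the highest level left out and each array left out. Figures were drawn with matplotlib 3.10.9.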

Additional observations from a re-analysis of the deposited data

How the results depend on the processing

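Against a 1.2-fold change (limma's treat), which asks for more than a difference from 0, 160 rows were called, 66 higher and 94 lower, with 28 bright rows higher and 34 lower. Named rows that lost their call in this test include SAM1 (adjusted p = 0.0985), HTA1 (0.0755), HTA2 (0.563), TDH3 (0.113) and PMA1 (0.549). The lost calls given above for single rows leave this test out, except in the count for CCT7. Leaving out any 1 of the 12 arrays gave 369 to 616 called rows, 133 to 223 higher and 234 to 393 lower, and 81 to 96 bright rows, 38 to 47 higher and 43 to 49 lower. With the replicate number as a block 539 rows were called, 198 higher and 341 lower, and 91 bright rows. The replicate numbers were not used as a pairing: same-numbered arrays deviated together with r of 0.07 to 0.18 (2 of 3 pairs over 0.1), the other pairs with -0.14 to 0.02. Each of the 6 arrays correlated best with its own number, which is a hint in the values and is not stated in the design. Among named rows the block changed the call of CCT7 alone (adjusted p = 0.0557). Centring gave 544 calls, 488 of them shared with the deposited scale, quantile normalization 583 (497 shared) and the fit to the 6 arrays 553 (504 shared). Array weights gave 636 calls, the dimmest 25% left out 464, the variance trend 551 and removal of the 2 rows that reach the highest level 547. The 24 bright rows of largest change were called in the same direction in 504 of 504 alternative fits, with limma's adjusted p up to 0.000943. They were picked from the same arrays, so this says little of other calls. Over 106 named rows and 2221 fits, 0 turned direction when called, 85 lost a call and 15 gained one, mostly differences under 0.7. The cause was not tested. No depth or signal over background was available for a row.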

Other observations

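The values here come from lists and rows chosen after the data were seen and support nothing by themselves. Rows of nitrogen assimilation were called in 6 of 10 cases, 2 higher and 4 lower, against 22.8% of all rows. Besides GDH2, YDR508C (GNP1), a permease for glutamine and other amino acids, rose by 0.67 on the log2 scale (limma, adjusted p = 0.000196). YPR035W (GLN1), glutamine synthetase, fell from 12.05 to 11.01 on the log2 scale (adjusted p = 1.15e-05), YKR034W (DAL80), a repressor of nitrogen genes, by 0.46, YKR039W (GAP1), the general amino acid permease, by 0.56, and YOR375C (GDH1), the NADP-dependent glutamate dehydrogenase, by 0.49. Of 10 rows for cytosolic aminoacyl-tRNA synthetases 4 were called, all lower, against 14.6% of all rows lower: YPL160W (CDC60, leucine) at -0.77, YOL097C (WRS1, tryptophan) at -0.81, YBR121C (GRS1, glycine) at -0.76 and YDR037W (KRS1, lysine) at -0.54.

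Of 16 seripauperin rows, a family of near-identical subtelomeric genes whose rows may read shared sequence, 7 were called higher and 2 lower. Of all rows 8.24% were called higher and 14.6% lower. Without 24 h replicate 2 the higher calls of the family numbered 4. PAU23 and YLL025W (PAU17) rose by 1.59 and 0.97 and YAR020C (PAU7) by 0.78, while the bright YFL020C (PAU5) differed by -0.22 (adjusted p = 0.248). YMR325W (PAU19) and YEL049W (PAU2), both dim, were called lower by -0.45 and -0.47, and only 1 lower call was left without 72 h replicate 2 or 3 or 24 h replicate 1 or 3. Bright rows outside every list were called lower for YLR262C-A (TMA7, a ribosome-associated protein) at -1.14, YMR241W (YHM2, a mitochondrial citrate carrier) at -1.11, YKL096W-A (CWP2, a cell wall mannoprotein), which fell by 1.08, and YER133W (GLC7, protein phosphatase of type I) at -0.99. Of 137 rows whose names carry a suffix after a hyphen, given in S. cerevisiae mostly to short frames annotated late, 39 were called, 18 higher and 21 lower, against 22.8% of all rows called, and of the 20 bright ones 4 were higher and 6 lower, against 58.1% of all bright rows called.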
